A study of Mus musculus with 112 samples.

Results

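DNA methylation (DNAme) of sperm and of prefrontal cortex was compared in the adult sons (F1) of unexposed, wild type (WT) C57BL/6J sires, labelled Control. The comparison held 14 of the 112 reduced representation bisulfite sequencing (RRBS) libraries of the series, 6 of sperm and 8 of brain. Its unit was the cytosine: 451625 cytosines had a methylation percent in at least 4 libraries of both tissues, of 2697396 with a value in any library of either tissue. The comparison was repeated in sons of WT sires exposed to cigarette smoke before mating, with 7 further sperm and 8 further brain libraries. By the breeding that the study describes, all sons had a CAST/EiJ mother, so every animal was a C57BL/6J by CAST/EiJ hybrid male. Sperm came from the cauda epididymis and vas deferens after lysis of somatic cells, and brain DNA came from the prefrontal cortex of the left hemisphere. A brain sample titled WT also carries an NRF-/- strain label and was kept by its title. The labels do not say whether a sperm and a brain library came from the same animal. The p-values therefore measure the spread between libraries of a tissue. Sire and litter did not enter the tests.

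In mammals, methyl groups are placed on cytosines of CpG dinucleotides, are mostly absent from CpG-rich promoters, and cover most of the remaining genome. The pattern of sperm is set afresh in the male germ line, where imprinted regions receive the paternal state and the promoters of germ cell genes stay free of methylation. After fertilization most of that pattern is erased, and the embryo methylates germ cell promoters anew while imprinted regions keep the state of their parental allele. In the brain, neurons and glia diverge further, and active enhancers within neuronal genes lose methylation. Prefrontal cortex is a mixture of these cells, so that partial methylation of every cell cannot be told apart from full methylation in some cells. Bisulfite also reads 5-hydroxymethylcytosine, which is abundant in neurons, as methylated.

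Libraries differed in how many of the 451625 cytosines they scored. Brain libraries held 97.5% to 99.3% of them and 4 sperm libraries 87.1% to 98.5%, but sperm columns 2 and 3 held 63.5% and 44.1% (columns are named by their order in the deposited table). Across cytosines, the correlation of a library with the mean of the other libraries of its tissue was 0.969 to 0.978 in those 4 sperm libraries, 0.957 in column 2, 0.916 in column 3 and 0.970 to 0.989 in brain, and it was 0.555 to 0.783 with the mean of the other tissue. Values are from all libraries that scored enough of a feature's cytosines, unless they are said to be without columns 2 and 3. At many regions, promoters and gene bodies column 2 or 3 or both had no value, so that 4 or 5 sperm libraries remained. At the 140179 cytosines with a mean under 5% in both tissues, libraries averaged 0.482% to 0.813% in sperm and 0.769% to 1.18% in brain. At the 13723 cytosines over 95% in both, they averaged 97.3% to 98.1% and 96.4% to 97.9%. The column headings carry numbers, of a shared prefix for all sperm libraries and of another for all brain libraries. What the prefix stands for is not stated, and it cannot be told apart from tissue.

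The mean methylation of a library, over those of the 451625 cytosines that it scored, did not separate the tissues. Sperm libraries averaged 44.9%, 52.8%, 51.3%, 47.4%, 46.0% and 41.3% (47.3% ± 4.22, SD, n = 6), and brain libraries averaged 48.7% to 49.9% (49.4% ± 0.405, SD, n = 8). The difference, brain minus sperm throughout, was 2.13 percentage points (exact two-sided permutation test over libraries, p = 0.18). Leaving out 1 library gave from 0.950 points (without sperm column 6) to 3.24 points (without sperm column 2, exact permutation test, p = 0.0163). The 2 highest sperm values were those of columns 2 and 3. Without both, a choice made after the values were seen, sperm averaged 44.9% ± 2.58 (SD, n = 4) with a range of 41.3% to 47.4%. All of these lay below every brain library, and the difference was 4.51 points (exact permutation test, p = 0.00202). The 2 removed columns were those above the brain range, so the lack of overlap and the p-value followed from the choice. At the 140533 cytosines with a value in all 14 libraries, sperm averaged 54.1% to 64.2% (59.3% ± 3.56, SD, n = 6) and brain 65.6% to 66.8% (66.3% ± 0.390, SD, n = 8). In column order the sperm values there were 60.3%, 58.1%, 54.1%, 64.2%, 61.8% and 57.3%, so columns 2 and 3 no longer stood highest. At these shared cytosines the difference was 7.0 points and the groups did not overlap (exact permutation test, p = 0.000333, the smallest that 3003 splits can give).

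The share of a library's scored cytosines of intermediate level, from 25% to 75%, was 15.9%, 25.5%, 33.9%, 12.4%, 15.3% and 16.9% in the sperm columns (20.0% ± 8.12, SD, n = 6). In brain it was 19.6% to 20.8% (20.1% ± 0.399, SD, n = 8), a difference of 0.0634 points (exact permutation test, p = 0.993). The sperm columns that scored the fewest cytosines again stood highest. Without them, a choice made after the values were seen, the sperm share was 15.1% ± 1.94 (SD, n = 4), and brain was 4.92 points higher (exact permutation test, p = 0.00202). They were the only sperm columns above the brain range, so this result too followed from the choice. At the 140533 cytosines scored in all libraries the share was 17.8% to 33.7% in sperm (25.01% ± 5.51, SD, n = 6) and 24.8% to 26.7% in brain (25.5% ± 0.692, SD, n = 8), a difference of 0.488 points (exact permutation test, p = 0.804). Without columns 2 and 3 the sperm share at these cytosines was 22.1% ± 3.36 (SD, n = 4), 3 of the 4 libraries lay below every brain library, and brain was 3.39 points higher (exact permutation test, p = 0.0141). The share of scored cytosines at exactly 0% or 100% was 31.6% to 54.7% in sperm (45.8% ± 8.50, SD, n = 6) and 24.8% to 40.2% in brain (27.6% ± 5.16, SD, n = 8), a difference of -18.1 points (exact permutation test, p = 0.000666). At the shared cytosines it was 22.2% to 29.6% in sperm and 7.59% to 18.9% in brain, a difference of -17.5 points without overlap (exact permutation test, p = 0.000333). The number of reads behind each percent is unknown, and its part in these shares was not tested. Each library's values are drawn in the plot of levels by library.

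**Figure D1:**
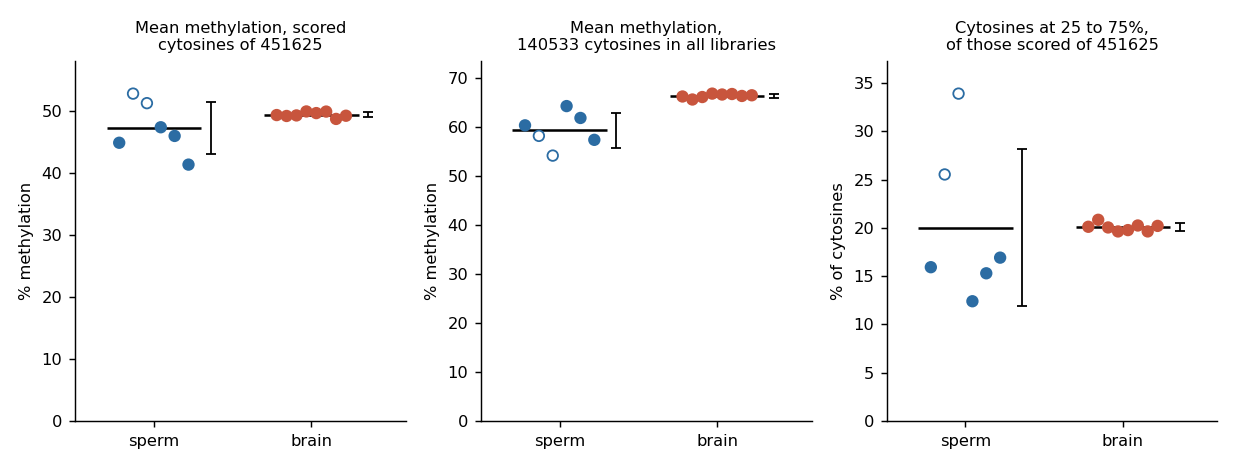
Mean methylation of each library over the cytosines it scored of the 451625 (left) and over the 140533 scored in every library (middle), and the percent of its scored cytosines from 25% to 75% (right). The left and right panels therefore compare libraries over partly different cytosines. Each point is a library, open points are sperm columns 2 and 3, lines are group means and bars are 1 SD to each side. Brain libraries lie close together in all panels, and the tissues are apart only in the middle panel.

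Single cytosines moved far in both directions. The brain mean exceeded the sperm mean by over 25 points at 72607 cytosines (16.1%) and lay below it by over 25 points at 39227 (8.69%). Differences over 50 points were found at 37633 cytosines (8.33%) in the direction of brain and at 13282 (2.94%) in the direction of sperm.

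Cytosines at most 100 bp apart were then joined into regions of at least 3 cytosines and over 50 bp, which gave 30914 regions with a median length of 99 bp and a median of 5 cytosines. Of these, 17081 (55.3%) differed between sperm and brain (limma moderated test, Benjamini-Hochberg adjusted p under 0.05 over all regions): 9095 (29.4%) were higher in brain and 7986 (25.8%) lower. A difference that was called and over 25 points is named large here, and 3976 regions (12.9%) were higher and 2908 (9.41%) lower by that much. The groups did not overlap in 12481 regions (40.4%). Of the called regions, 53.2% were higher in brain, and without sperm columns 2 and 3 there were 17545 called regions with 49.9% higher. The median SD over libraries was 2.94 points in sperm and 2.18 in brain, and the median size of a called difference was 18.7 points. By the study's own rule of size, a change of over 5 points in the region mean and in a share of at least 0.333 of its cytosines, 16524 regions (53.5%) qualified, and 15072 of these were also called.

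Most regions kept their class of level. In 10122 regions (32.7%) both tissue means lay under 25%, and in 9897 (32.02%) both were 75% or over. A full switch was more frequent towards methylation in brain: 1496 regions (4.84%) lay under 25% in sperm and at 75% or over in brain, against 300 (0.970%) in reverse. Loss in brain was usually partial, since 2645 regions (8.56%) at 75% or over in sperm lay between 50% and 75% in brain and 1053 lay between 25% and 50%. Large regions that were higher in brain had a median level of 9.56% in sperm and 83.6% in brain. Those that were lower had 91.8% in sperm and 46.7% in brain. The density plot of region levels shows both groups along its left and right edges.

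**Figure D2:**
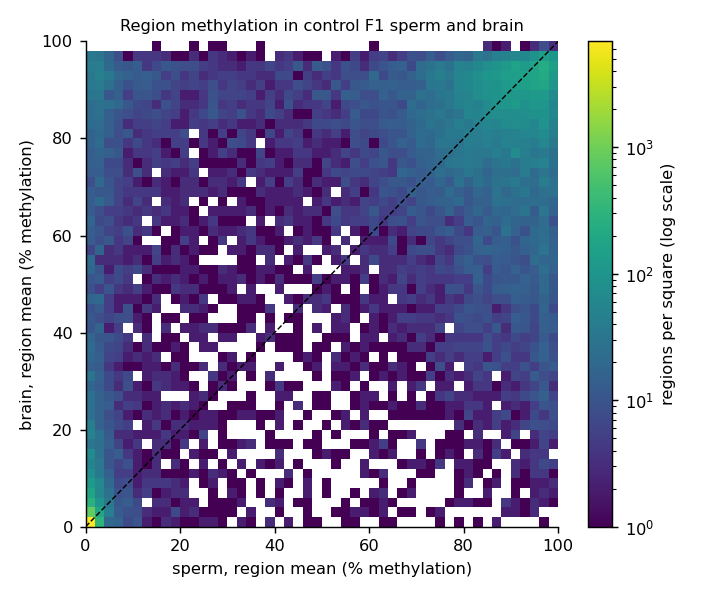
Mean methylation of 30914 regions in brain (vertical, percent) against sperm (horizontal, percent), with the color giving the number of regions per square on a log scale and the dashed line marking equal levels. Regions crowd in the lower left and upper right corners, a band at the left edge reaches up to full methylation in brain, and the band at the right edge thins out below the middle of the brain axis.

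The direction depended on where a region lay in the genes. Promoter regions, within 1 kb of a transcript start, had medians of 0.932% in sperm and 1.1% in brain, and 7.27% of 10435 were large and higher in brain against 2.60% lower. Coding exon regions were large and higher in 20.4% of 3202 and lower in 7.09%, and intergenic regions in 19.2% and 10.4% of 8568. Introns went the other way: 10.2% of 7902 intron regions were large and higher and 17.7% were lower, with medians of 85.8% in sperm and 79.7% in brain. Introns held 48.2% of the large regions that were lower in brain but 20.2% of those that were higher, against 25.6% of all regions. On the X chromosome, which brain cells of males hold in a single copy and only some of the sperm hold at all, 21.4% of 360 regions were large and higher and 6.94% lower, against 12.8% and 9.44% of 30539 autosomal regions. Regions that lay wholly in masked repeats were large and higher in 18.4% of 494 and lower in 1.82%.

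Imprinted genes were read beside the tissue labels. At maternally methylated imprinted promoters the egg's allele is methylated and the paternal allele is not. Pure sperm should therefore be unmethylated, and somatic DNA should hold methylated maternal and unmethylated paternal copies in equal share. A promoter was taken as the window from 1 kb before to 1 kb after a gene's start, with starts closer than 1 kb joined and at least 3 cytosines. Of 21 listed genes, 17 had a window with values in both tissues and Kcnq1ot1, Airn, Cdh15 and Ndn had none. Overlapping windows that held the same cytosines were counted once, which left 22 windows, of which 19 were higher in brain, where 27.8% of all 15652 promoter windows were. Sperm lay under 10% in 18 of the 22. Among these, 16 had brain means between 10% and 75%: their sperm means were 0.308% to 5.4% and their brain means 14.6% to 71.1%, with a median of 28.8%. That median lay below an equal share, while Mest and a window of Slc38a4 lay above it, and the reason was not tested. These 16 were chosen by their levels, so what follows only describes them. Averaged over them, sperm libraries lay between 0.155% (column 2, in which 5 windows had a value) and 3.15% (column 3, 4 windows), and brain libraries between 33.0% and 39.0%. In the other 6 windows sperm was over 10% (Nnat, Inpp5f and a window each of Slc38a4 and Usp29) or brain under 10% (a window each of Gnas and Grb10).

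The following regions are shown because they carry that contrast. Each is the forward strand of RefSeq GRCm38.p6, 5′ to 3′, with the CpGs that had a value in capitals.
Plagl1, chr10:13091040-13091189: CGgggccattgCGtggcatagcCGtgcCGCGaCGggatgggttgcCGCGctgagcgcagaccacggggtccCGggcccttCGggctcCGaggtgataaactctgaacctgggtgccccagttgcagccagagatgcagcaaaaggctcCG
Snrpn, chr7:60004580-60004651: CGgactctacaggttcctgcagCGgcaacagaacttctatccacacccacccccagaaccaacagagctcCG
Rasgrf1, chr9:89878037-89878162: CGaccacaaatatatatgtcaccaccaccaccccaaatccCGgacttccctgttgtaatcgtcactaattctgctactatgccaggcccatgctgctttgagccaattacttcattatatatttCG

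Plagl1 encodes a zinc-finger protein that limits growth and is expressed from the paternal allele. The Plagl1 region held 12 cytosines and began close to its start. Sperm libraries had 0%, a median of 0.954% and at most 2.23% (1.03% ± 1.20, SD, n = 4), and brain libraries 26.2% to 44.5% with a median of 37.2% (37.3% ± 5.38, SD, n = 8). The difference was 36.2 points (SE 2.66, adjusted p = 1.59e-07), and single cytosines in brain lay within 34.7% to 39.8%, so that the level was even along the sequence. Snrpn, whose control region governs the Prader-Willi cluster and whose region is nearest to the start of Snurf, had -1.09% to 6.05% with a median of 0.397% in sperm and 18.3% to 40.5% with a median of 32.3% in brain. A region's value is adjusted for the cytosines a library lacks, which can place it slightly below 0 or above 100.

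Rasgrf1, an exchange factor for Ras that is expressed from the paternal allele in brain, has a control region that is methylated on the paternal allele instead. Its region, intergenic and 31746 bp from the nearest start, had 89.5%, 68.3%, 76.3%, 81.0%, 90.7% and 85.7% in the sperm columns and 24.3% to 47.8% with a median of 36.6% in brain. All sperm libraries were above all brain libraries, and the difference was -44.8 points (SE 4.07, adjusted p = 2.99e-07). Without sperm columns 2 and 3 the Rasgrf1 control region differed by -49.6 points (adjusted p = 2.66e-07). The region rests on 3 cytosines. The control regions of H19, Dlk1-Meg3 and Zdbf2 were not analysed here, since no region with values in both tissues lay within them.

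Further imprinted windows differed in level. Mest, a hydrolase-like gene, had 3.33% to 8.75% in sperm and 57.3% to 84.2% in brain. The neuronatin gene Nnat had 13.2% to 16.7% in sperm, the highest level among the windows that sperm left largely unmethylated, and 53.0% to 60.6% in brain. At Gnas, which encodes a stimulatory G protein subunit and has starts of both parental kinds, the windows at chr2:174296859-174298859 and chr2:174326570-174329023 rose from 1.5% to 41.8% and from 1.43% to 37.2%. The overlapping Gnas window that followed held 0.361% in sperm and 0.536% in brain (adjusted p = 0.454). Peg10 and Sgce share a window, and its brain libraries were spread from 9.72% to 47.7% (26.5% ± 14.1, SD, n = 8), the widest spread among the windows, while sperm lay at 0% to 1.78%. Slc38a4, an amino acid transporter, had a window that rose from 3.36% to 70.99% and another that fell from 94.7% to 86.6%. The only other fall was in an Inpp5f window, from 97.3% to 80.4% (adjusted p = 4.29e-06).

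**Figure D3:**
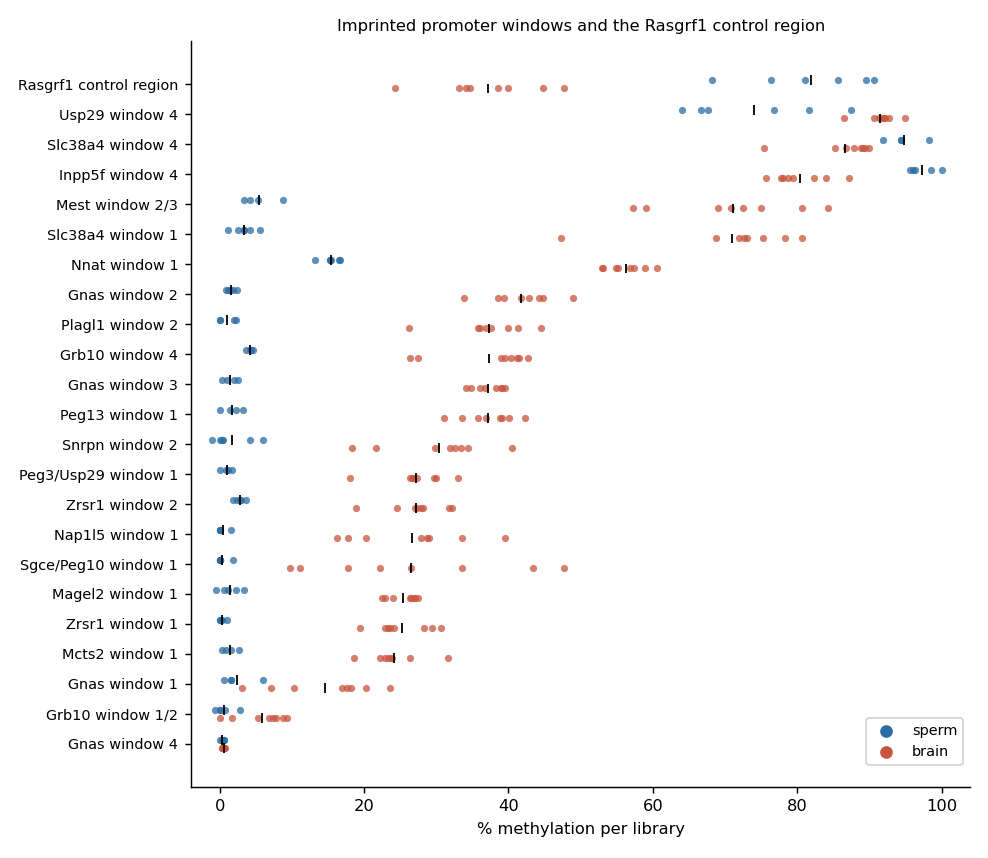
Methylation percent of each library (horizontal) at 22 imprinted promoter windows and at the Rasgrf1 control region, with sperm in blue, brain in red and black ticks at the group means; windows of a gene are numbered by transcript start in its 5′ to 3′ direction. In 18 windows the sperm means lie under 10%, with brain means to their right except at the fourth Gnas window, where both means lie under 1%, whereas at Rasgrf1 sperm lies to the right of brain.

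Promoters of all genes were then compared. Among 11974 genes, each represented by the window with most transcripts, 3775 promoters (31.5%) differed, 3163 (26.4%) higher and 612 (5.11%) lower in brain. In 9703 of them both means were under 10%, and the median difference was 0.285 points. Cytosines under 5% in both tissues also read slightly higher in brain, with library medians of 0.824% against 0.581% in sperm. How far this floor shift entered the small promoter differences was not tested. Large differences were found in 715 (5.97%) higher and 159 (1.33%) lower, and the groups did not overlap in 24% of promoters. Over all 15652 windows, 5739 (36.7%) were called. The lists below are read against the shares per gene. They were chosen with earlier results of these data known, so their shares describe the lists and do not test them.

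Genes of germ cells and meiosis had the largest shifts among the lists. Of 56 listed genes, 29 were measured: 24 promoters (82.8%) were higher in brain, against 26.4% of all promoters. A rise of over 25 points was found in 20, where 5.97% of all promoters had one, 1 was lower and 4 were not called. The median difference was 60.2 points, against 0.285 over all promoters. The following regions, given as above, are from 3 such promoters and from the spermatid gene Tnp1, described further on. The Tnp1 region lies within 1 kb of its start, but the nearest annotated start, 154 bp away, is that of 1700027A15Rik.
Sohlh2, chr3:55182338-55182410: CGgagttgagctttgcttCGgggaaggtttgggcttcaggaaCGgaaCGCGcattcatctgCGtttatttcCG
Dazl, chr17:50293263-50293364: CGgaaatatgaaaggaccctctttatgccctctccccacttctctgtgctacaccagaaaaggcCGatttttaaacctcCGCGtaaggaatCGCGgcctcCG
Tex19.1, chr11:121145831-121145883: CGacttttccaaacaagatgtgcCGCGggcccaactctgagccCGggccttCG
Tnp1, chr1:73015478-73015537: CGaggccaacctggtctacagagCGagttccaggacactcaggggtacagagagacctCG

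Dazl encodes an RNA-binding protein that germ cells need from the embryo onwards. Its promoter, with 9 cytosines, had -0.136% to 0.855% with a median of 0% in 5 sperm libraries and 82.3% to 90.2% with a median of 86.6% in 8 brain libraries, a difference of 86.0 points (SE 1.32, adjusted p = 9.73e-15). Within the sequence shown, single cytosines of brain ranged from 34.4% to 98.6%, so that the brain level was uneven along this promoter. Sohlh2, a transcription factor of early germ cells, had -0.373% to 1.02% in sperm and 93.7% to 99.2% in brain, and every cytosine of its region lay between 94.4% and 98.4% in brain. Tex19.1, which restrains retrotransposons in germ cells, had 7.51% to 11.4% with a median of 8.41% in all 6 sperm libraries and 90.8% to 96.5% with a median of 94.3% in brain. In these 3 genes no brain library came near the sperm range.

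Ddx4, the germ cell RNA helicase known as Vasa, reached a lower level in brain than these: sperm had 0% to 8.99% and brain 45.7% to 68.7% with a median of 62.1%. Some genes of the piRNA pathway were at intermediate levels in brain too. Piwil2 had 5.77% to 6.72% in sperm and 40.7% to 43.4% in brain, Tdrd6 rose by 42.7 points, and Tdrd1 had brain libraries from 49.6% to 87.5%. Tdrd5 and Tex15, also of that pathway, were low in both tissues, with 1.39% and 2.35% (adjusted p = 0.383) and with 2.78% and 5.23% (adjusted p = 0.391). Genes of meiotic recombination and the chromosome axis were spread over the whole scale. Spo11, which cuts DNA to start recombination, rose from 4.94% to 89.8% and Hormad1 from 10.8% to 87.5%, while the strand exchange gene Dmc1 rose from 3.34% to 22.5% and the cohesin gene Smc1b from 0.366% to 5.17%. Msh5 was the only one to fall, from 15.5% to 11.2% (adjusted p = 0.0135), and with a window of 500 bp in place of 1 kb it was 2.21 points higher instead (adjusted p = 0.00779). Rpl10l, a retroposed ribosomal protein gene of the testis, had 0% to 1.56% in sperm and 93.5% to 100% in the 5 brain libraries that scored it. Tuba3a and Tuba3b rose by 92.0 and 94.1 points, but they are near-identical copies between which short reads can be misplaced, so their values are uncertain.

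The letters GCGGGAA, known from sites of E2F6, and CACGTG, known from sites of MAX partners, were searched on both strands of the 300 bases from 250 before to 50 after the start in the RefSeq promoter table, which matched 8182 measured genes. GCGGGAA was present in 13 of 23 matched germ cell promoters (56.5%), in 9.39% of all matched promoters and in 7.29% of the 398 that were large and higher in brain. CACGTG was present in 5 of 23 (21.7%) and in 10.3% of all. The regions printed here hold neither motif, and a match is a description of the sequence only.

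Genes of spermatids and sperm structure were mixed. Of 52 listed, 16 were measured: 9 promoters (56.25%, against 26.4% of all promoters) were higher in brain, 5 of them by over 25 points. Of the rest, 0 were lower and 7 were not called, and the median difference was 6.67 points. The highest rise was in Actl7b, an actin-like protein of the sperm head, with 0% to 3.33% in 4 sperm libraries and 95.9% to 98.6% in brain. The calicin gene Ccin, of the sperm head skeleton, had 0% to 1.05% in sperm and 85.0% to 93.0% in brain. Tnp1, the transition protein that replaces histones before protamines do, had 0% to 6.14% in 5 sperm libraries and 74.9% to 86.6% in brain (77.4 points, adjusted p = 5.82e-13). This promoter value rests on 4 cytosines, all of them in the Tnp1 region printed above. Whether that region lies in a repeat, where short reads can be misplaced, was not tested. Tekt2, a tektin of the flagellum, started from 29.2% in sperm and reached 77.6%. Of the 7 that were not called, Odf2, Catsper2, Spa17, Zpbp2 and Hspa1l lay between 0.426% and 2.20% in both tissues. The other 2 were methylated in sperm already, Spem1 with 88.9% in sperm and 93.8% in brain (adjusted p = 0.253) and Tssk1 with 75.1% and 83.6% (adjusted p = 0.0973).

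Promoters of neuronal genes mostly moved little. Of 65 listed, 44 were measured, and 40 of these lay under 10% in both tissues. In brain 10 were higher, none by over 25 points, 3 were lower and 31 were not called, so that 22.7% were higher against 26.4% of all promoters. The 3 of 44 that fell were all large, where 5.11% of all promoters were lower and 1.33% large and lower. Shank2, a scaffold of excitatory synapses, had 46.0% to 67.8% in sperm and 0% to 2.83% in brain (-57.2 points, adjusted p = 1.27e-08). Gria1, an AMPA receptor subunit, had 16.7% to 54.0% in sperm and 0% to 1.72% in brain, and Vip, a peptide of a class of interneurons, had 74.4% to 84.9% and 35.3% to 66.0%. In none of these did the tissues overlap. Gria1 rests on 3 cytosines, Vip on 4 and Shank2 on 5.

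Promoters of glial genes went both ways. Of 32 listed, 15 were measured, and 6 (40%) were higher in brain, against 26.4% of all promoters. Lower were 4, where 5.11% of all promoters were, and 5 were not called, with a median difference of 0.970 points. Gfap, the filament protein of astrocytes, had 4.36% to 9.96% with a median of 7.47% in sperm and 57.1% to 68.4% with a median of 63.0% in brain. Mbp, a myelin protein of oligodendrocytes, had 0% to 2.62% in sperm and 42.1% to 64.3% in brain. Lower in brain were Sox10, the transcription factor of oligodendrocytes (84.8% to 88.9% in sperm and 44.4% to 68.9% in brain), and the microglial receptor genes P2ry12 (from 81.0% to 59.7%) and Cx3cr1 (from 87.6% to 74.3%). Glul, the glutamine synthetase of astrocytes, fell from 7.99% to 1.68%. Gjb6, a connexin, rose by 13.6 points, but with a window of 500 bp its difference was -0.335 points (adjusted p = 0.773).

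Developmental control genes rose slightly but often. Of 39 Hox genes, 24 were measured: 16 (66.7%) were higher in brain, against 26.4% of all promoters, 0 were lower and none was large. The median difference was 1.65 points, and 23 lay under 10% in both tissues. Hoxd10 had 0.435% to 1.30% in sperm and 5.16% to 7.21% in brain. Of 147 other transcription factor genes of development, 115 were measured, and 64 (55.7%, against 26.4% of all promoters) were higher, with a median of 1.14 points. In brain 2 were lower, where 5.11% of all promoters were. A large rise was found in 5 of the 115, where 5.97% of all promoters had one. The part of the floor shift given above in the small rises of both lists was not tested. The largest rise was in Nkx6-3, a homeobox gene of the stomach, from 12.8% ± 3.6 (SD, n = 4) to 89.5% ± 3.48 (SD, n = 8), followed by the thyroid factor Pax8 (41.9 points) and Tbx1 (36.2 points). Dbx2 (-18.5 points) and Evx1 (-11.1 points) were lower in brain, but Evx1 was 0.832 points higher at cytosines scored in all libraries (adjusted p = 0.052). Pluripotency genes had 6 of 13 promoters higher (46.2%, against 26.4% of all promoters) and 0 lower. Gdf3 rose by 67.1 points with a wide spread in brain (SD 19.7, n = 6), and Dppa5a had 61.5% to 75% in sperm and 92.0% to 100% in brain.

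Clustered protocadherins, cell surface proteins of which each neuron expresses a few, were higher in brain at 18 of 19 measured promoters (94.7%, against 26.4% of all promoters). Large rises numbered 12, 0 promoters were lower and the median difference was 35.5 points. Pcdha4 had -0.590% to 2.90% in sperm and 48.1% to 68.9% in brain, and Pcdhga5 was at 0% in all 5 sperm libraries that scored it and at 42.5% to 58.3% in brain. These genes stand side by side on a chromosome and are not independent. Among DNA methylation writers and erasers, 11 of 14 promoters were not called, 2 were higher (14.3%, against 26.4% of all promoters) and 1 lower. Tet1, an enzyme that oxidizes methylcytosine, rose from 64.4% to 92.4% in the window measured, and the de novo methyltransferase gene Dnmt3b lay at 1.11% and 0.459%. Housekeeping promoters had 13 of 17 not called, 2 higher (11.8%, against 26.4% of all promoters) and 2 lower, with a median difference of -0.0566 points. Gusb was an exception among them, from 6.87% to 28.6%.

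**Figure D4:**
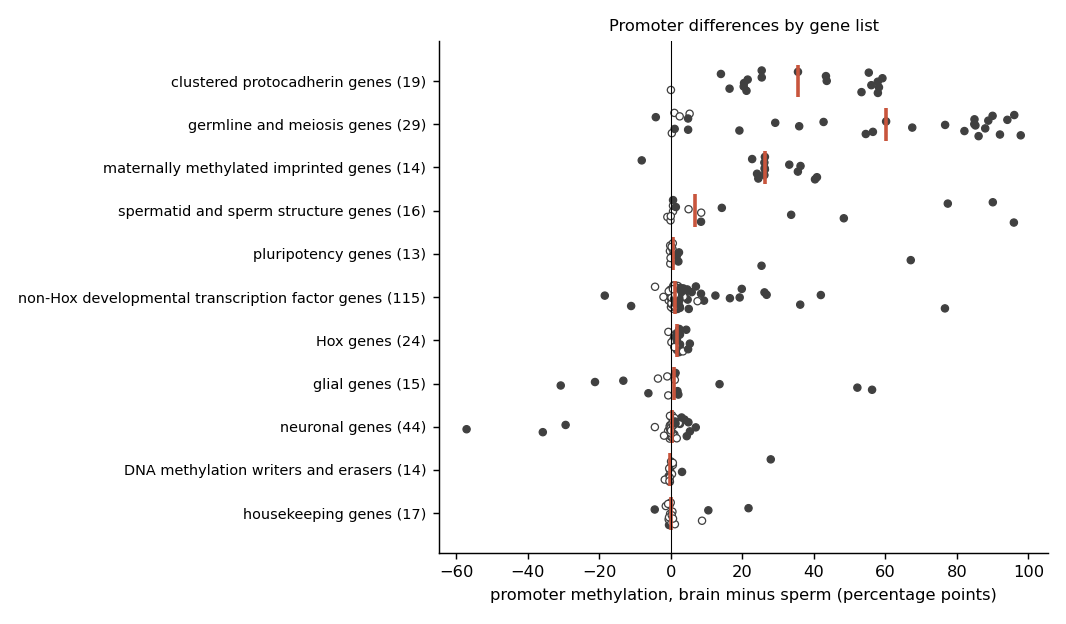
Promoter methylation in brain minus sperm (percentage points, horizontal) for the measured genes of each list, with the number measured in brackets. Each point is a gene, filled where it was called and open where not, and red bars are list medians, which lie at 60.2 points for germ cell genes, 35.5 for protocadherins and 26.2 for imprinted genes and under 7 for the other lists.

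The promoters with the largest differences were listed among protein-coding genes with at least 10 cytosines, a value in all 14 libraries and no overlap between tissues. Of 136 such promoters, 126 were higher in brain and 10 lower, where 2543 of all 2967 called protein-coding promoters were higher and 424 lower. At the top stood Pabpc2, a poly(A)-binding protein gene of the testis without introns, with 0.206% to 1.83% (median 1.22%) in sperm and 96.8% to 99.2% (median 97.8%) in brain. Kif2b, a kinesin of the mitotic spindle, had 0% to 1.23% in sperm and 93.3% to 96.9% in brain. Rnf212b, of meiotic crossing over, had 0.167% to 1.22% and 81.8% to 86.5%, and the spermatid gene Cypt4 had 2.39% to 4.98% and 84.7% to 90.8%. Dpep3, a dipeptidase of the testis, and Igbp1b, a retroposed copy of a phosphatase-binding protein gene, rose by 89.96 and 87.9 points.

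Several of the rises were in genes known from photoreceptors. Kcnv2, a potassium channel subunit, had 0.317% to 4.71% in sperm and 96.1% to 97.9% in brain, and the calcium sensor recoverin (Rcvrn) had 1.64% to 4.90% and 85.2% to 89.1%. Prph2, of the photoreceptor disc, was the most variable of the 12 in sperm, with 7.56% to 26.8% against 92.1% to 95.9% in brain. This grouping was made after the values were seen, and no list of such genes was tested. Slc35e3 and Ptpn20, the remaining 2 of the 12, reached medians of 68.5% and 69.6% in brain. In sperm they had 1.54% to 5.401% and 4.95% to 11%.

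The 10 that were lower in brain were mostly small. Limch1, which regulates actomyosin, was the only large one, with 74.6% to 95.3% (median 92.2%) in sperm and 35.6% to 43.5% (median 38.7%) in brain, a difference of -48.6 points (SE 2.998, adjusted p = 7.41e-09). The centrosome gene Sfi1 fell by 17.6 points and the homeobox gene Evx1 by 11.1 points. Gpx8 and Rps9 fell by 7.03 and 6.63 points, and Ric8a, Kpna2, Cers1, Srsf1 and Ebf3 by 2.00 to 3.89 points. Evx1 was 0.832 points higher in brain when only cytosines scored in all libraries were used (adjusted p = 0.052), and Ric8a and Ebf3 were higher by 0.509 and 0.121 points with windows of 500 bp, neither of them called.

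Gene bodies, taken as the cytosines of a protein-coding gene over 1 kb from any start with at least 10 of them, differed most often. Of 4273 bodies, 3166 (74.1%) were called, 1832 (42.9%) higher and 1334 (31.2%) lower in brain, and 444 (10.4%) and 147 (3.44%) were large. Of the called bodies, 57.9% were higher in brain, and without sperm columns 2 and 3 there were 3267 called bodies with 52.2% higher. Rtl3, a gene on the X chromosome that derives from a retrotransposon, was first among rises with 1.73% to 2.95% in sperm and 95.1% to 97.5% in brain. Ccin followed with -0.158% to 3.74% and 90.6% to 94.7%, and Pcare, a gene of the photoreceptor cilium, rose by 90.1 points. Grm2, a metabotropic glutamate receptor of neurons, had 0.595% to 3.93% in sperm and 87.7% to 93.4% in brain at 12 cytosines. Zfp42, known as the pluripotency marker Rex1, had 4.19% to 7.04% and 91.0% to 95.4% at 27 cytosines. Tubb6, Zfp791 and Zfp92 rose by 82.2 to 86.7 points.

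The named falls in gene bodies ended between 19.6% and 61.5% in brain. Dpysl5, which guides axon growth, had 77.2% to 87.1% in sperm and 19.6% to 25.2% in brain (-57.7 points, SE 1.53, adjusted p = 1.52e-14). Camk2a, a kinase of excitatory synapses, had 80.3% to 91.3% in sperm and 28.2% to 36.7% in brain, and Abat, which breaks down GABA, had 93.9% to 97.5% and 35.6% to 49.8%. Tubb5, a tubulin of dividing cells and neurons, fell from 92.2% to 37.2%. The importin gene Ipo13 had the widest spread of these in brain, 34.8% to 61.5%. Abhd2, a lipase with a known role in sperm activation, had 87.3% to 96.6% in sperm and 37.3% to 42.6% in brain at 31 cytosines. Zfand3 and Fam53b fell by 46.5 and 44.6 points.

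**Figure D5:**
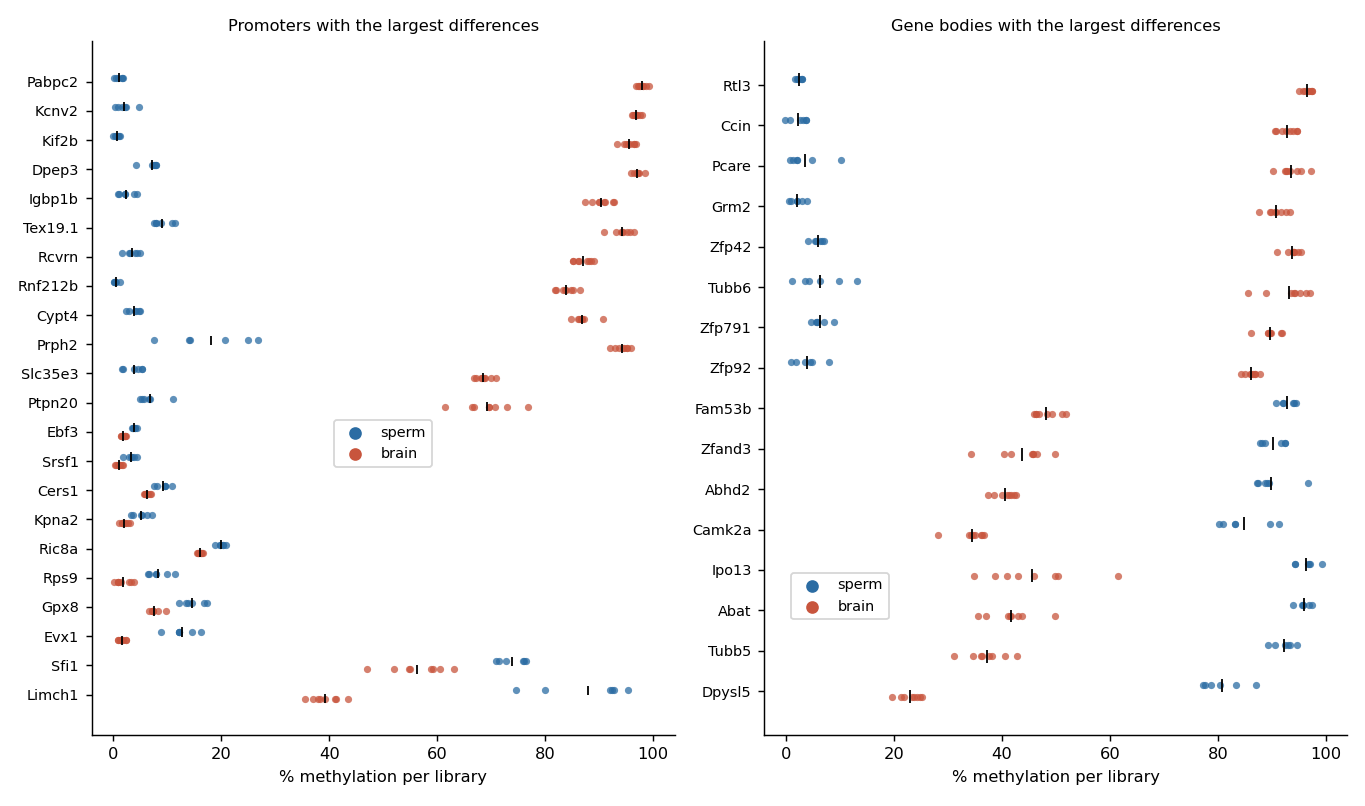
Methylation percent of each library (horizontal) for the promoters (left) and gene bodies (right) with the largest differences, with sperm in blue, brain in red and black ticks at the group means. The rises run from at most 26.8% in sperm to between 61.5% and 99.2% in brain, and the falls of gene bodies end between 19.6% and 61.5% in brain.

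Neuronal genes, whose promoters had mostly moved little, fell more often than they rose in their bodies. Of 31 measured bodies, 16 were lower in brain, 6 of them large, 10 were higher and 5 were not called, where 31.2% of all bodies were lower, 3.44% large and lower, and 42.9% higher. The median difference was -8.36 points, against 1.82 over all bodies. Camk2a has been given above. Camk2b, its sister kinase, had 85.1% to 90.2% in sperm and 43.9% to 50.2% in brain, and the synapsin gene Syn2 fell by 28.0 points and Shank2 by 27.1. Bdnf, the neurotrophin, went the other way with 16.7% to 19.6% in sperm and 78.3% to 88.8% in brain. Shank3 rose from 22.3% to 50.2%. Of 7 glial bodies, 4 were lower, 2 higher and 1 not called, too few to set against those shares. The astrocyte glutamate transporter Slc1a3 fell from 82.8% to 53.2%, and the microglial gene Tmem119 rose from 15.7% to 85.8%.

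Rbfox3, which encodes the neuronal nuclear antigen NeuN, was the neuronal body with most cytosines (111). It had 84.4% to 89.3% with a median of 86.6% in 5 sperm libraries and 41.6% to 48.4% with a median of 45.2% in 8 brain libraries, a difference of -41.4 points (SE 1.22, adjusted p = 2.36e-13). The gene spans chr11:118489762-118911597 and held 16 regions, 11 of which were lower in brain and 0 higher. The 8 large ones were all intronic, with sperm means of 76.1% to 98.0% and brain means of 23.9% to 48.8%. Over all intron regions, 42.1% were lower in brain, 17.7% were large and lower, and 25.5% were higher. Its 4 promoter regions lay between 0.189% and 2.78% in both tissues, and a further intronic region stayed at 87.8% in sperm and 89.2% in brain. Intronic regions of Rbfox3 and Abhd2 with a sharp loss are given as above.
Rbfox3, chr11:118891229-118891319: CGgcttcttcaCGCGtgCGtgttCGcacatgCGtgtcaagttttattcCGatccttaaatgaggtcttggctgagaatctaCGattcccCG
Abhd2, chr7:79295570-79295666: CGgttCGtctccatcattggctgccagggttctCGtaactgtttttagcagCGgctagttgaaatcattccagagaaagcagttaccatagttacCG

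The Rbfox3 region had 96.1% to 99.1% with a median of 98.1% in sperm and 21.3% to 31.1% with a median of 28.1% in brain, and its 10 cytosines lay between 96.4% and 99.4% in sperm and between 17.5% and 43.3% in brain. The Abhd2 region had 98.6% to 100.2% with a median of 99.5% in 4 sperm libraries and 5.88% to 14.3% with a median of 8.22% in brain, a difference of -90.3 points (SE 1.52, adjusted p = 9.29e-14). All cytosines of both regions moved in the same direction.

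The same comparison was made in the sons of smoke-exposed WT sires, from 7 further sperm and 8 further brain libraries of the same cross. Their column headings carry the same prefixes by tissue as those of control sons, so prefix and tissue cannot be told apart here either. There, 16541 of 29521 regions (56%) differed, 28.4% higher and 27.7% lower in brain. Of 16236 regions called in control sons and tested again, 15987 (98.5%) had the same sign and 14147 (87.1%) were also called with that sign. Of 6514 large regions tested again, all had the same sign and 6498 were called. Sohlh2 differed by 92.6 points there, Dazl by 87.0, Plagl1 by 38.3, the Rasgrf1 control region by -47.4 and the Rbfox3 body by -42.3. Of 5489 called promoter windows tested again, 5338 (97.2%) had the same sign and 4616 (84.1%) were also called with it, where 41% of all windows were called there. The Ebf3 promoter was among those with the other sign, with -2.0 points in control sons and 0.424 points in sons of smoked sires (adjusted p = 0.312). Of 2902 called gene bodies tested again, 2792 (96.2%) had the same sign and 2536 (87.4%) were also called with it, as were all 531 large ones. Over all bodies measured, a set that differs between sires, 36.2% of 3921 were higher and 39.8% lower in brain in sons of smoked sires, against 42.9% and 31.2% of 4273 in control sons.

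Whether the tissue difference itself differed by sire was tested with an interaction term over the 4 groups. It was called in 1 of 29521 regions (0.00339%), 2 of 15035 promoter windows (0.0133%) and 0 of 3921 gene bodies, with 2095, 1221 and 344 at an unadjusted p under 0.05. The promoter of Ldhd, a lactate dehydrogenase of mitochondria, had 71.5% in sperm and 95.1% in brain of control sons and 43.5% and 97.01% in sons of smoked sires (interaction 29.9 points, adjusted p = 0.00224). The promoter of Crocc, of the ciliary rootlet, had 73.1% and 83.7% against 85.0% and 83.5% (-12.2 points, adjusted p = 0.0156). A region nearest to Efcab5, at chr11:77100190-77100294, had 8.41% and 1.30% against 2.55% and 1.63% (6.19 points, adjusted p = 0.0406). In all 3 the brain means lay within 2 points of each other between sires. These calls rest on few cytosines, 5 at Ldhd, 4 at Crocc and 3 near Efcab5, and on 4 or 5 control sperm libraries.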

How the data were processed

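RRBS libraries were made from MspI and TaqαI digests and sequenced as 50-base single reads, per the labels. The authors aligned the reads with Bismark to mm10 (its version is not given in the sources used here) and deposited a table per group, with the methylation percent of each cytosine in each library. The study analysed CpGs covered by over 8 reads in at least 4 replicates, but the tables also hold positions with a value in fewer libraries, and whether the read minimum was applied to them is unknown. The tables hold percents without read counts, so the depth is unknown, no interval that needs it is given, and error enters through the spread between libraries. Library positions with a value ranged from 510212 to 1365744 in sperm and from 1474107 to 1588194 in brain. All positions were CpG cytosines (0 outside a CpG), with both strands as separate positions. A CpG that CAST/EiJ lacks is read against another strain's sequence in both tissues. Column headings match no sample label, so columns were assigned to groups by table and named by order, and which column holds the brain sample with the NRF-/- strain label is unknown. Of the 4 tables read, 0 columns of values were left out; tables of other groups were not used here.

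Region, promoter and gene body values per library were the group mean over the cytosines plus the library's mean deviation at those it scored (at least 50% of them, and at least 4 libraries per tissue). GENCODE M21 gave genes. Promoter windows and named promoters asked for at least 3 and 10 cytosines. Tests were limma 3.58.1 in R 4.3.3 on percents, with Benjamini-Hochberg adjustment over all features of a kind, and exact two-sided permutation tests over libraries. The fits were tested on simulated data. Named genes were the 12 promoters and 8 gene bodies with the largest difference in each direction among called, non-overlapping protein-coding genes with a value in all 14 libraries, leaving out symbols of predicted genes (Gm and Rik), the extreme members of each list, and all imprinted windows with values. The members and gene lists were chosen with earlier results of these data known. Alternatives were tried for the cytosines, strands, joining distance, window, minimum, scale, weights, groups in the fit and each library left out.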

Additional observations from a re-analysis of the deposited data

Results flagged for a closer look

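In 231 groups of 4 to 10 libraries checked for a library far from the others (Dixon's criterion at 95%), 25 had such a library. Chance flags about 1 in 20 groups. Over all cytosines, brain column 6 had 40.2% of its values at exactly 0% or 100%, against 24.8% to 27.2% in the other brain libraries.

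Among the promoters and gene bodies with the largest differences, a sperm library stood apart at Dpep3 (4.17%), Rnf212b (1.22%), Ptpn20 (11%) and the Abhd2 body (96.6%). A brain library stood apart at Cypt4 (90.8%) and at the bodies of Zfp791 (86.2%) and Camk2a (28.2%). Among imprinted windows, a sperm library stood apart at Sgce and Peg10 (1.78%) and at Nap1l5 (1.59%), and a brain library at Peg3 (18.03%) and at both Slc38a4 windows (47.3% and 75.4%).

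In the other lists, the sperm library was apart at Sohlh2 (-0.373%), Calb1 (9.52%), Dppa5a (61.5%), Dbx2 (64.1%), Pcdha4 (2.90%), Pcdha12 (1.96%) and the Pdgfra body (92.9%). The brain library was apart at Rpl10l (93.5%), Tuba3b (84.0%), Ccin (85.0%), Gjb6 (10.6%) and P2ry12 (47.1%). None of these libraries lay within the range of the other tissue except at Calb1, where brain libraries started at 5.71%.

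The tissue difference itself differed between sons of control and of smoked sires, by the interaction test, at a region near Efcab5 (6.19 points), at the Crocc promoter (-12.2 points) and at the Ldhd promoter (29.9 points). Each of these rests on 3 to 5 cytosines.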

How the results depend on the processing

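No paired analysis was possible because the columns carry no replicate number and the labels tie no sperm library to a brain library. Using cytosines with a value in all 14 libraries left 5588 of 8532 regions, 1835 of 4207 promoter windows and 1074 of 1481 gene bodies called, and the mean methylation difference was 7.0 points. Regions joined up to 50 bp gave 7789 calls of 16415, and those with at least 6 cytosines 5325 of 12797 (70.9% higher in brain, against 53.2%). Promoter windows of 500 bp gave 3223 calls of 12918, and those with at least 10 cytosines 2159 of 7446 (86.7% higher, against 75.7%). By the rule of size, joining up to 300 bp gave 25283 of 42130 regions and up to 50 bp 6868 of 16415. Without sperm columns 2 and 3, an alternative chosen after seeing the data, the mean difference was 4.51 points and the difference in intermediate share 4.92 points, and at cytosines scored in all 14 libraries they were 5.41 and 3.39 points. Without these columns, and with every other choice kept, there were 5750 promoter windows and 3267 gene bodies called. Higher in brain were 23 germ cell, 60 other developmental transcription factor and 17 Hox promoters (from 24, 64 and 16). Neuronal genes had 9 higher (from 10), pluripotency genes 5 higher (from 6) and glial genes 5 lower (from 4). Without sperm column 2 alone the mean difference was 3.24 points (exact permutation test, p = 0.0163).

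With windows of 500 bp fewer genes of each list were measured, so counts are given with the number measured. Germ cell genes had 0 of 26 lower (from 1 of 29) and neuronal genes 6 of 38 higher (from 10 of 44). Glial genes had 2 of 12 lower (from 4 of 15). Other developmental transcription factor genes had 36 of 89 higher and 1 lower (from 64 and 2 of 115). Protocadherins had 10 of 10 higher (from 18 of 19), writers and erasers 0 of 12 (from 2 of 14) and housekeeping genes 1 of 13 (from 2 of 17). In sons of smoked sires, cytosines scored in all libraries gave 5274 of 9338 regions. Leaving out each library in turn gave 16605 to 17539 regions, 5469 to 5853 promoter windows, 3081 to 3262 gene bodies, 16460 to 16760 regions by size, mean differences of 0.950 to 3.24 points and intermediate share differences of -1.46 to 2.85 points. The intermediate share turned in sign without sperm column 1 (-0.750), 4 (-1.46), 5 (-0.877) or 6 (-0.552) or brain column 2 (-0.0476).

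Of 2250 values of the named features under these alternatives, 2213 kept their direction and call, 32 lost the call and 5 turned in direction: Evx1 (0.832 points), Ric8a (0.509), Ebf3 (0.121), Msh5 (2.21) and Gjb6 (-0.335). Of 113 named features, 97 kept both under every alternative, and 23 of the 32 lost calls came from leaving out a library. The cause was not tested for any of these changes. Unknown read depth limits what single cytosines and short regions can show.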
